A study of Mus musculus with 24 samples.

Results

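The cell cycle and proliferation genes form a list of 43 genes chosen by name and function, 14 for DNA replication and the S phase and 29 for mitosis. They were followed in RNA of spinal cord microglia, the resident macrophages of the cord, of mice in which experimental autoimmune encephalomyelitis (EAE) was induced, the model disease for multiple sclerosis. All 43 were among the 39017 gene identifiers of the count table, and 42 of them were among the 16535 genes with enough counts to be tested (14 of 14 replication members and 28 of 29 mitosis members). The exception was *Bub1*, a kinase of the spindle checkpoint, which held at most 1.33 CPM (counts scaled to the size of the library) in any library. The 24 libraries fall into 4 groups of 6: female wildtype, female *Kdm6a* cKO, male wildtype and male *Kdm6a* cKO. cKO stands for conditional knockout of *Kdm6a*, which lies on the X chromosome and encodes an enzyme that takes repressive methyl groups off histone H3. All groups carried the EAE label, so disease was not compared with health. According to the design text the mice carried *Tmem119*-Cre, which acts in microglia, together with RiboTag, by which ribosomes of cells with Cre bear a tag. Ages are not given in the labels, nor whether each library came from a separate animal, so p-values measure only the spread between these samples, which may be technical. Replicate numbers follow accession order and pair no libraries, but replicates 1 to 3 and 4 to 6 differed as sets: the Y-linked *Ddx3y* stood at 15.1 to 23.8 CPM in the former and 3.60 to 7.83 in the latter over both male groups.

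A dividing cell copies its DNA in S phase and separates the copies in mitosis. Genes for replication are switched on by E2F transcription factors as the cell leaves G1, while genes for mitosis follow later through the DREAM and MuvB complexes with B-Myb and FoxM1. Microglia in the healthy adult cord divide rarely and renew themselves locally, and they divide more during EAE. In bulk RNA, fewer cycling cells and less RNA per cycling cell cannot be told apart.

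Total counts ranged from 27110133 to 40554736 per library. *Kdm6a* was lower on average in the cKO groups of both sexes. It stood at 4.51 ± 1.37 CPM in female wildtype against 2.501 ± 0.671 in the cKO group of that sex (SD, n = 6 each). Male wildtype had 2.79 ± 0.705 CPM, and the male cKO libraries had 1.08 ± 0.382 (SD, n = 6 each). The log2 change was -0.85 in females (adjusted p = 0.031) and -1.36 in males (adjusted p = 0.016) by the edgeR test used below, and the counts also cover exons outside any deleted part. The female call was lost in 6 of 12 fits that left out a female library. The library labelled female wildtype 5 went against its label, with *Kdm6a* at 2.167 CPM, inside the female cKO range of 1.56 to 3.48, while the other female wildtype libraries held 4.23 to 6.09. It is called by its label throughout. Microglial markers were high everywhere, with 10 markers summing to between 4641 CPM in female wildtype 5 and 9846 CPM in female cKO 1. Markers of other cells were present too: 6 oligodendrocyte markers summed to 2289 to 3649 CPM and 7 astrocyte markers to 441.6 to 780.5 CPM. Sums of 7 oligodendrocyte precursor and 7 vascular markers had medians of 233.8 and 164.1 CPM in female cKO. In female wildtype these medians were 93.01 and 79.16 CPM, and edgeR's test called 1 marker of each list higher in female cKO. Most of each rise came from 1 gene. *Cspg4* stood at 17.8 to 39.2 CPM in female wildtype and 129.0 to 259.9 in female cKO, and *Flt1* at 27.9 to 81.7 and 98.1 to 157.8. The median log2 change in females was 0.20 over the precursor markers and -0.56 over the vascular markers, of which 4 of 7 were below 0. Some libraries stood apart in an earlier analysis of these data, namely female wildtype 2, 3 and 5 and male cKO 3. The hair follicle gene *Tchh* reached 102.8 CPM in female wildtype 2 and 200.2 in female wildtype 3, against at most 19.3 in the other libraries. *Ddx3y* stood at 1.09 CPM in female wildtype 3 and *Xist* at 0.459 CPM in male cKO 3. Female wildtype 5, the library whose *Kdm6a* level goes against its label, had a voom quality weight of 0.162, the lowest of the 24. For the classes, and for some of the genes, results that rest on these libraries are given with and without them.

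The first result is how unevenly the 24 libraries expressed the members. A score was taken for each library as the mean of log2(CPM + 0.5) over the members of a class. The mitosis score lay between 0.62 and 1.60 in 20 libraries and at 2.45 or above in the other 4. These were female wildtype 5 (3.80), female wildtype 3 (3.07), male wildtype 3 (2.86) and male cKO 1 (2.45). They came from 3 of the 4 groups, and no female cKO library was among them. The same 4 libraries had the highest replication scores, in another order, with 5.20 in female wildtype 5, 4.14 in male cKO 1, 3.81 in male wildtype 3 and 3.66 in female wildtype 3. In the other 20 libraries the replication score lay between 2.71 and 3.25.

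**Figure D1:**
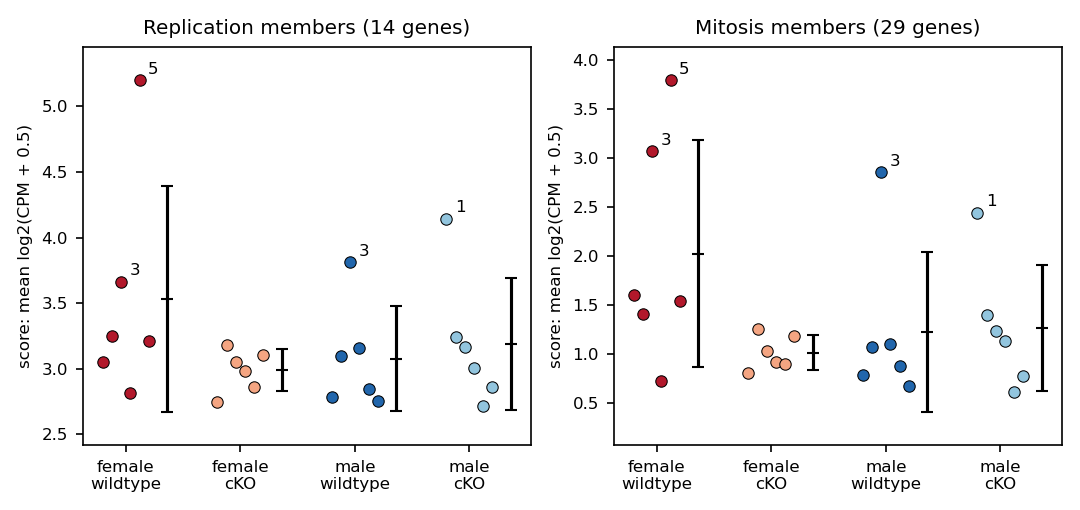
Replication score (left) and mitosis score (right) of each library, as mean log2(CPM + 0.5) over 14 and 29 genes, by group; points are libraries, bars show the group mean ± SD (n = 6) and numbers mark the replicates named in the text. Female wildtype 3 and 5, male wildtype 3 and male cKO 1 lie above the rest for mitosis, while the 6 female cKO libraries lie between 0.81 and 1.26.

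Female wildtype 5 was the highest of 24 libraries for 13 of 14 replication members and 24 of 29 mitosis members, and female wildtype 3 for the remaining 1 and 5. Over the mitosis members, the median fold over the 24-library median was 6.75 in female wildtype 5, 3.89 in female wildtype 3, 3.50 in male wildtype 3 and 2.42 in male cKO 1. Over the replication members these medians were 4.01, 1.30, 1.52 and 1.90. Thus in female wildtype 3 and male wildtype 3 mitosis genes stood far above the other libraries and replication genes only little, while in female wildtype 5 both classes stood high. The mitosis score minus the replication score was -0.59 in female wildtype 3 and -0.95 in male wildtype 3. It was -1.41 in female wildtype 5 and -1.70 in male cKO 1, and between -2.10 and -1.45 in all others.

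**Figure D2:**
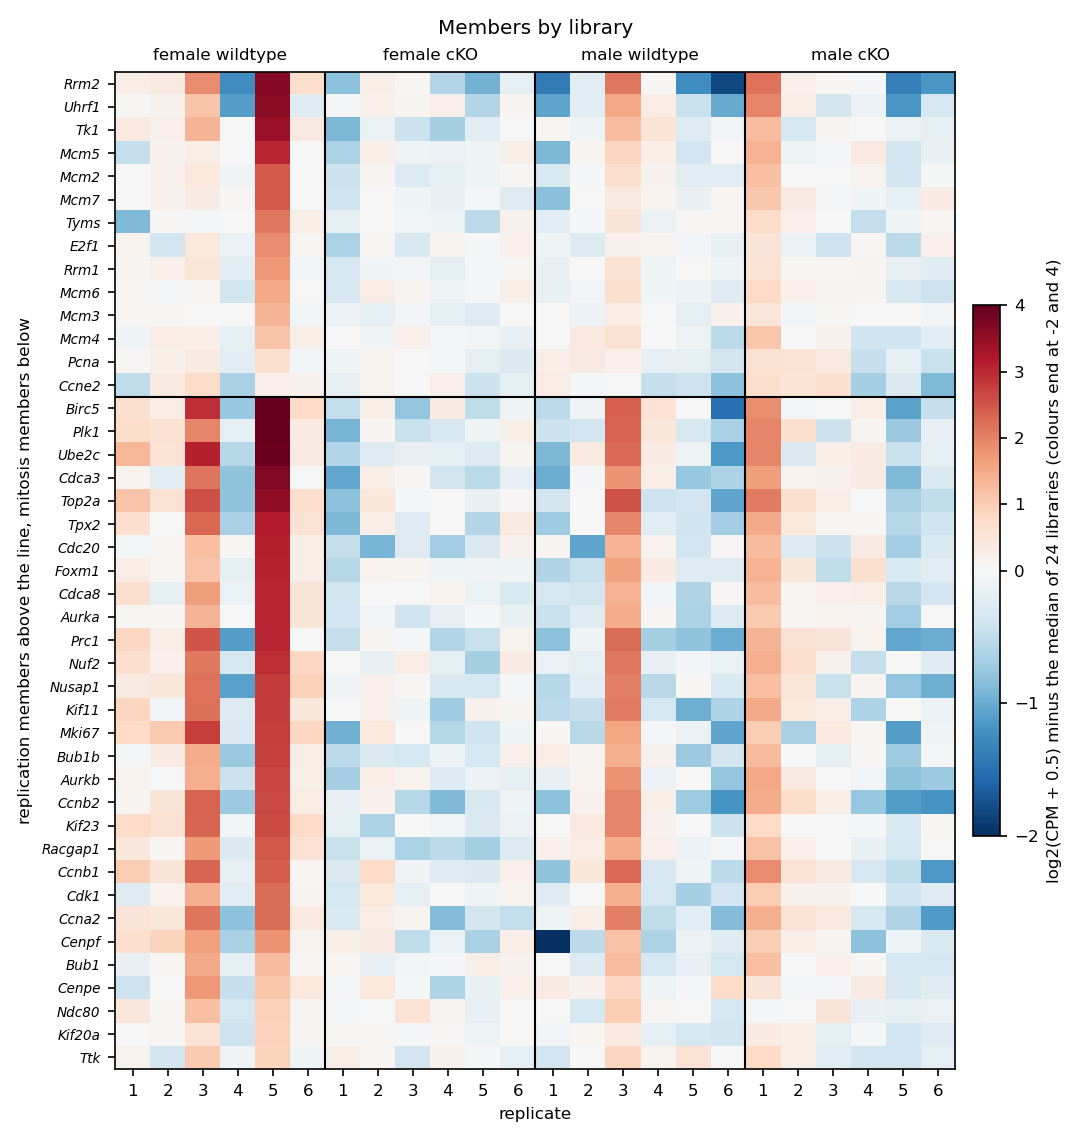
Level of each of the 43 members in each of the 24 libraries, as log2(CPM + 0.5) minus the member's median over the 24 libraries; columns are libraries by group, and rows are members, replication above the line and mitosis below, ordered by their value in female wildtype 5. Dark columns at female wildtype 5 and, for mitosis members, female wildtype 3, male wildtype 3 and male cKO 1 show that the members stood high together in the same libraries.

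The classes also differed in their average level over all libraries, the high ones included, and in how far libraries varied within a group. Replication members had a median level of 2.39 RPKM (CPM per kilobase of exon, averaged over libraries), from 0.346 for *Ccne2* to 10.9 for *Mcm3*. Mitosis members had a median of 0.819 RPKM, from 0.0357 for *Ndc80* to 2.54 for *Kif20a*. Within female wildtype the median coefficient of variation (SD over mean) was 89.0% for replication members and 107.0% for mitosis members. Within female cKO it was 17.7% and 36.9%. In male wildtype it was 27.7% and 113.1%, and in male cKO 42.9% and 78.3%. Female cKO, the group with no high library, thus had the narrowest spread in both classes.

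Promoters are shown because the members of each class stood high together. RefSeq windows of 300 bases (250 before the transcription start and 50 from it, build GRCm38.p6) were at hand for 36 of the 43 members. Words searched on both strands were the CHR element (TTTGAA or TTCGAA), which binds MuvB complexes, the CCAAT box, which binds NF-Y, and the E2F site (TTTGGCGC, TTTCCCGC, TTTCGCGC or TTTGCCGC). A CHR word was in 19 of 24 mitosis promoters (79.2%), in 2 of 12 replication promoters (16.7%) and in 21.7% of the promoters of all 27025 genes in the table. An E2F word was in 1 of 24 mitosis promoters (4.17%), in 5 of 12 replication promoters (41.7%) and in 2.6% of all. A CCAAT box was in 83.3% of mitosis promoters, 75.0% of replication promoters and 41.1% of all. Of 45 promoters of other mitosis genes 71.1% held a CHR word, 13.3% an E2F word and 66.7% a CCAAT box. Of 30 promoters of other replication genes the shares were 16.7%, 40.0% and 53.3%. A match describes letters in this window and shows no binding. E2F words can overlap each other, as in the *Mcm5* promoter. Windows of 3 replication and 3 mitosis members follow, 5′ to 3′ on the gene's strand, with matched words in capitals.
*Rrm2*, chr12:24708004-24708303, plus strand: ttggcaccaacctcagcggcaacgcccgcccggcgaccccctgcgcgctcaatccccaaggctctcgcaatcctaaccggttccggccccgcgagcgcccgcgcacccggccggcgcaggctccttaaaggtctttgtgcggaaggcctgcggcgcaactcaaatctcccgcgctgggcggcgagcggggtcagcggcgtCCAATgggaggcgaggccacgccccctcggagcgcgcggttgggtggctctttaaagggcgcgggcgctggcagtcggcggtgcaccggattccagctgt
*Mcm2*, chr6:88898731-88899030, minus strand: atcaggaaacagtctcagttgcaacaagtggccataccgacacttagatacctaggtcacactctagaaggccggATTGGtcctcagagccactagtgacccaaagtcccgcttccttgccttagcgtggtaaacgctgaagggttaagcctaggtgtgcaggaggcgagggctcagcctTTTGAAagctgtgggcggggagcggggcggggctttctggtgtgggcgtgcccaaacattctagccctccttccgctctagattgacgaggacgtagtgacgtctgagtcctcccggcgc
*Mcm5*, chr8:75109259-75109558, plus strand: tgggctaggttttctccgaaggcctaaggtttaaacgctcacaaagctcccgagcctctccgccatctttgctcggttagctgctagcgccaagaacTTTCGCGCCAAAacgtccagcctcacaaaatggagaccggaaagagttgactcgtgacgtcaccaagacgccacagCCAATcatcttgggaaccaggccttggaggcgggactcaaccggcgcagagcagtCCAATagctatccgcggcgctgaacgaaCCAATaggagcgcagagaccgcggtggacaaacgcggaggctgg
*Mki67*, chr7:135716330-135716629, minus strand: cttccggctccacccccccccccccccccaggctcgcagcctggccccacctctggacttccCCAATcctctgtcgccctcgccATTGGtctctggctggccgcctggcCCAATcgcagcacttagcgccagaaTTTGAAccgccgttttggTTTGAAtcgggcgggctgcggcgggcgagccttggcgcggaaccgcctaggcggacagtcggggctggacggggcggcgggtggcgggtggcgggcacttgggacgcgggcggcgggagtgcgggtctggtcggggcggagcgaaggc
*Plk1*, chr7:122159185-122159484, plus strand: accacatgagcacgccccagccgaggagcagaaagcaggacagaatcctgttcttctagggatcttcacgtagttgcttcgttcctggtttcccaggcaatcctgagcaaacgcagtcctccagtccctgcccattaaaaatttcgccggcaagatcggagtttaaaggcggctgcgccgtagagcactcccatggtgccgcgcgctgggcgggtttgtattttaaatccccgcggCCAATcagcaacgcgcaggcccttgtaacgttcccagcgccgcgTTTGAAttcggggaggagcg
*Birc5*, chr11:117848987-117849286, plus strand: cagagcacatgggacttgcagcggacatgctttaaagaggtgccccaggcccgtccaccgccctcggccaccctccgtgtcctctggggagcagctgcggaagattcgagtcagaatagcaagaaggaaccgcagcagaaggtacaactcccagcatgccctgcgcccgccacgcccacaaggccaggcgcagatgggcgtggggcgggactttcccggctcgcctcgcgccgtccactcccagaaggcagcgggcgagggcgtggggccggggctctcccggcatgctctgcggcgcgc
The *Mki67* window holds 2 CHR words and 3 CCAAT boxes, and the *Plk1* window 1 of each. The *Mcm5* window holds 2 overlapping E2F words and 3 CCAAT boxes. The *Rrm2* window holds a single CCAAT box, the *Mcm2* window a CCAAT box and a CHR word, and the *Birc5* window none of the words.

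In females, cKO libraries had lower levels of proliferation genes, mostly of mitosis genes, and the size of the difference came largely from high wildtype libraries. With edgeR's quasi-likelihood test and adjustment over all 16535 genes, 13 of 42 members fell in female cKO (adjusted p under 0.05) and none rose. Of all genes tested 4.41% were called lower and 3.32% higher. Several libraries share a number in their titles, and with that number as a random effect (estimated correlation 0.2156) no member was called, while 2.26% of all genes still were called lower. No title number occurs in both genotypes, in either sex. Genotype therefore cannot be told apart from whatever these numbers mark, which the labels do not explain. With voom quality weights 2 of 42 members were called lower, against 4.75% of all genes. The 13 were 1 of 14 replication members, *Tk1*, and 12 of 28 mitosis members. All 42 estimates were below 0, and 35 had an unadjusted p under 0.05 by edgeR's test, as did 3174 of all 16535 genes in either direction. The members stood high together in the same libraries, so they do not count as separate observations. The median log2 change was -0.74 for replication and -1.87 for mitosis members, against -0.02 over all genes. A ratio of group medians, which gives a single high library less weight, had a median over members of -0.22 on the log2 scale for replication and -0.65 for mitosis.

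Among the replication members, the MCM genes encode the hexameric helicase that unwinds DNA at the fork. *Mcm2* (chromosome 6, 88883474 to 88898780) ranged in female wildtype from 12.6 to 74.4 CPM around a median of 14.1, and in female cKO from 9.69 to 14.3 around 11.98. Its log2 change was -1.02 (SE 0.36, adjusted p = 0.088), and female wildtype 5, 3 and 2 (74.4, 17.9 and 14.9 CPM) stood above all female cKO libraries. *Mcm5* (chromosome 8, 75109569 to 75128439) stood at 75.8 CPM in female wildtype 5, against 6.07 to 10.6 in the other female wildtype and 5.40 to 10.5 in the female cKO libraries. Its log2 change of -1.25 (SE 0.48, adjusted p = 0.13) became -0.07 without that library. *Mcm7* changed by -1.06 (SE 0.35, adjusted p = 0.068), and *Mcm3*, *Mcm4* and *Mcm6* by -0.49, -0.39 and -0.34, none past the threshold.

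Of 4 enzymes that supply deoxynucleotides, *Tk1* alone was called. *Tk1* (thymidine kinase 1, chromosome 11, 117815526 to 117826092) ranged in female wildtype from 3.44 to 43.1 CPM around a median of 4.60. In female cKO it ranged from 1.63 to 3.47 around 2.65. The groups overlapped only through female wildtype 4 at 3.44 CPM and female cKO 6 at 3.47. *Tk1* fell by 2.172 on the log2 scale (SE 0.51, adjusted p = 0.0066), and by 1.04 without female wildtype 5, when the call was lost (adjusted p = 0.062). *Rrm2*, the regulated subunit of ribonucleotide reductase (chromosome 12, 24708241 to 24714146), varied most within the class, 74.3-fold between the lowest and the highest of the 24 libraries. It stood at 1.28 to 51.1 CPM in female wildtype (median 5.60) and at 1.68 to 4.47 in female cKO (median 2.72), with a log2 change of -2.27 (SE 0.79, adjusted p = 0.084). *Rrm1*, the constitutive subunit, and *Tyms*, thymidylate synthase, had log2 changes of -0.66 and -0.82, with adjusted p of 0.099 and 0.23 in the same test.

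The remaining replication members are regulators and fork proteins. *Uhrf1*, which carries DNA methylation over to new strands, stood at 62.7 CPM in female wildtype 5 and 1.88 to 10.8 in the other female wildtype libraries, within reach of the 2.91 to 5.43 CPM of female cKO. Its change was -1.66 on the log2 scale (SE 0.68, adjusted p = 0.16), and -0.18 without female wildtype 5. *E2f1*, an activator of these genes, had a change of -0.67 (SE 0.28, adjusted p = 0.18). *Pcna*, the sliding clamp of DNA polymerase, varied least of all 43 members, 2.20-fold over all libraries, and changed by -0.27 (SE 0.19). *Ccne2*, a cyclin of the G1 to S transition, changed by -0.26 (SE 0.38), and it shares 474 annotated exon bases with *Ints8* on the opposite strand.

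Of the mitosis members, *Racgap1* and *Kif23* had the smallest p. *Racgap1* (chromosome 15, 99620496 to 99651656) and *Kif23* (chromosome 9, 61915905 to 61946774) encode the 2 subunits of centralspindlin, the complex that organises the midzone of the dividing cell. *Racgap1* ranged in female wildtype from 6.90 to 49.7 CPM around 12.4, and in female cKO from 5.21 to 7.75 around 5.93. A single wildtype library, number 4, lay inside the cKO range. *Racgap1* fell by 1.68 on the log2 scale (SE 0.39, adjusted p = 0.0056). *Kif23* was scarce, with 8 to 158 counts in female wildtype and 0 to 10 in female cKO libraries. Its levels were 0.243 to 4.23 CPM (median 0.807) and 0 to 0.279 CPM (median 0.193), with overlap again only through female wildtype 4. *Kif23* fell by 3.24 (SE 0.75, adjusted p = 0.0056). These were the only members whose call was kept in all 12 fits that left out a female library. Every other called member lost its call without female wildtype 5. In the other alternatives *Racgap1* kept its call in 9 of 13 and *Kif23* in 7 of 12.

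Proliferation markers and mitotic kinases followed. *Mki67* (chromosome 7, 135689784 to 135716361), the gene of the Ki-67 marker of cycling cells, stood at 7.66 CPM in female wildtype 3 and 7.62 in female wildtype 5, and at 0.486 to 2.002 in the other wildtype libraries. Female cKO libraries held 0.116 to 1.12 CPM, so that only female wildtype 4 overlapped with them. *Mki67* fell by 2.67 (SE 0.72, adjusted p = 0.020). *Plk1*, a kinase of mitotic entry, stood at 29.4 CPM in female wildtype 5 and 0.973 to 6.03 in the others, against 0.377 to 1.49 in female cKO, and fell by 2.88 (SE 0.81, adjusted p = 0.025). *Aurka*, the kinase of the spindle poles, was the only member with every female cKO library (3.15 to 4.25 CPM) below every female wildtype library (4.32 to 39.3 CPM), a pattern held by 2.1% of all genes tested. It fell by 1.67 (SE 0.48, adjusted p = 0.028), although the lowest wildtype library, at 4.32 CPM, lay close to the highest cKO library, at 4.25. *Aurkb*, the midzone kinase, did not pass (-1.36, SE 0.52, adjusted p = 0.13).

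The other called mitosis members act on the spindle, the kinetochore and the degradation of mitotic proteins. *Ube2c*, the ubiquitin-conjugating enzyme of the anaphase-promoting complex, had the largest change of all members. It ranged from 0.304 to 17.6 CPM in female wildtype (median 1.89) and from 0.290 to 0.778 in female cKO (median 0.522), and fell by 3.37 (SE 0.89, adjusted p = 0.016). *Cdc20*, an activator of the same complex, fell by 2.03 (SE 0.58, adjusted p = 0.027). *Birc5* (survivin) and *Cdca8* (borealin), both of the chromosomal passenger complex, fell by 2.79 (SE 0.78, adjusted p = 0.025) and 1.75 (SE 0.51, adjusted p = 0.031). *Tpx2*, *Nuf2* and *Cdca3* passed narrowly, with log2 changes of -1.94, -2.11 and -2.28 and adjusted p of 0.050, 0.048 and 0.045 in edgeR's test. Each kept its call in only 4 of 12 fits that left out a female library. *Birc5* showed the pattern of these genes, with 51.5 CPM in female wildtype 5, 22.01 in female wildtype 3, 1.22 to 4.56 in the other wildtype and 1.17 to 3.13 in the cKO libraries.

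Of the 16 mitosis members that were tested and not called, *Top2a*, the topoisomerase that untangles DNA, came close (-2.19, SE 0.70, adjusted p = 0.054). It stood at 41.9 and 21.03 CPM in female wildtype 5 and 3, at 1.55 to 7.49 in the others and at 1.54 to 4.47 in female cKO. *Cdk1*, the kinase that drives mitosis, changed by -0.96 (SE 0.41, adjusted p = 0.18) and its partner *Ccnb2* by -2.22 (SE 0.79, adjusted p = 0.093). *Foxm1*, an activator of mitosis genes, changed by -1.51 (SE 0.51, adjusted p = 0.073). The other 10 lay between -2.10 (*Kif11*) and -1.10 (*Ttk*), the cyclins *Ccna2* and *Ccnb1* at -1.50 and -1.87, the checkpoint kinase *Bub1b* at -1.58 and the midzone protein *Prc1* at -2.03. *Kif20a* stood apart from the class, with a change of -0.29 (SE 0.19) and only a 2.61-fold range over the 24 libraries. It shares 977 annotated exon bases with *Cdc23* on the opposite strand, and the strand setting of the counting is not given in the sources used here.

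**Figure D3:**
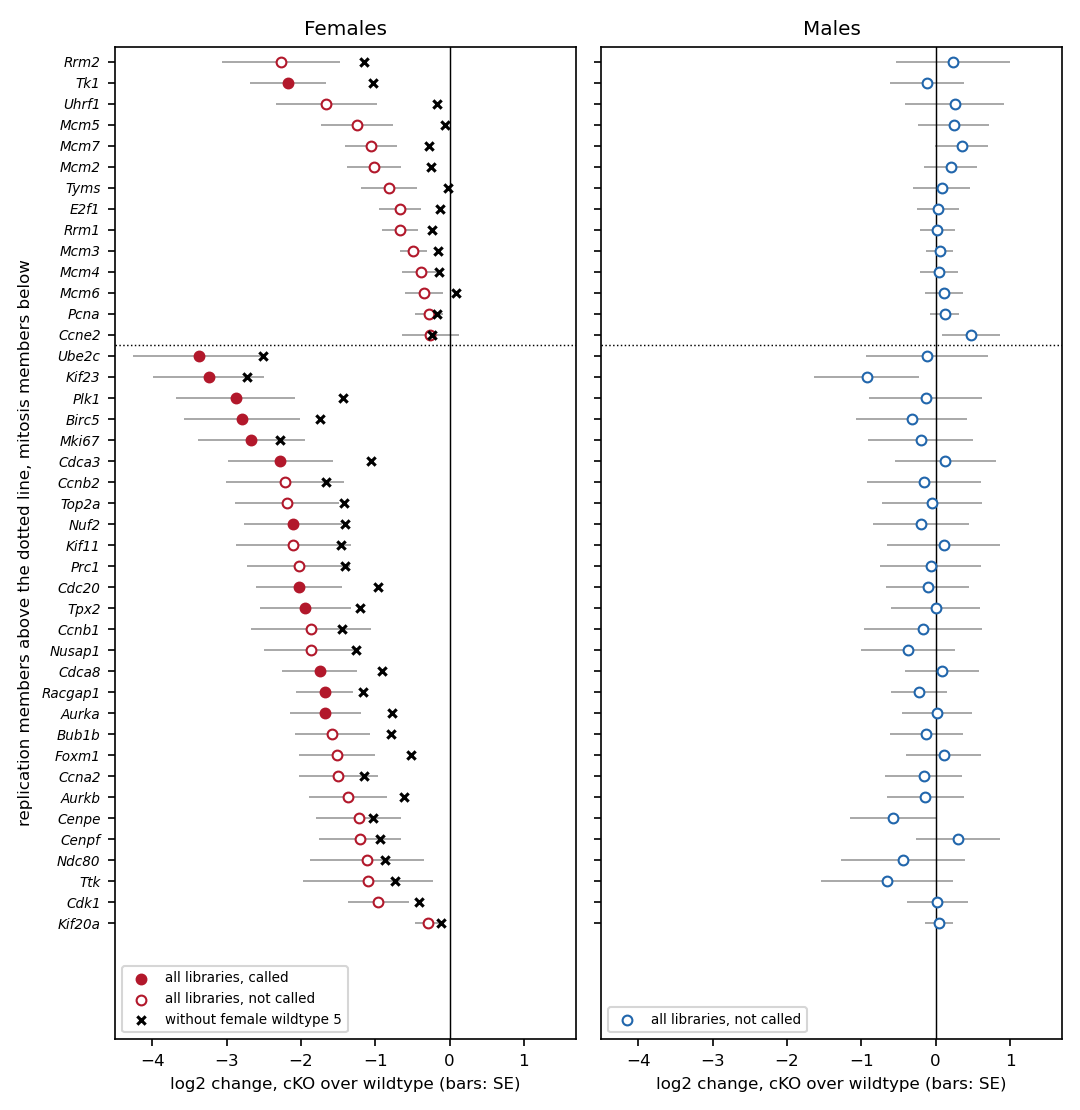
Log2 change of the 42 tested members, cKO over wildtype, in females (left) and males (right), with SE bars; filled points passed an adjusted p of 0.05 and open points did not, replication members stand above the dotted line and mitosis members below. Crosses give the female change without female wildtype 5: replication members move to near 0 (median -0.17) and mitosis members to a median of -1.16.

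The female difference depended on single libraries, and the classes did so to different degrees. Without female wildtype 5, whose *Kdm6a* level lies in the cKO range, the median log2 change went from -0.74 to -0.17 for replication members and from -1.87 to -1.16 for mitosis members. *Kif23* (-2.73) and *Racgap1* (-1.16) were then the only members called, 2 of 42, while 3.6% of all genes were called lower. Without female wildtype 3, which has the second highest mitosis score, the medians were -0.81 and -1.68 and 8 members were called. Leaving out female wildtype 4, whose members stood in the cKO range, gave 22 called members. Leaving out a female cKO library gave 4 to 8, and leaving out a male library 10 to 21, the latter without male wildtype 3, since all groups shared 1 estimate of the spread. Of all genes, 4.02% were called lower without female wildtype 3 and 4.36% without female wildtype 4. The share was 3.34% to 3.67% without a female cKO library and 4.1% to 4.68% without a male library. No member was called without the 4 libraries that stand apart, 3 of which are female wildtype, when the medians were -0.04 for replication and -0.48 for mitosis. Of all genes, 3.15% were then called lower.

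**Figure D4:**
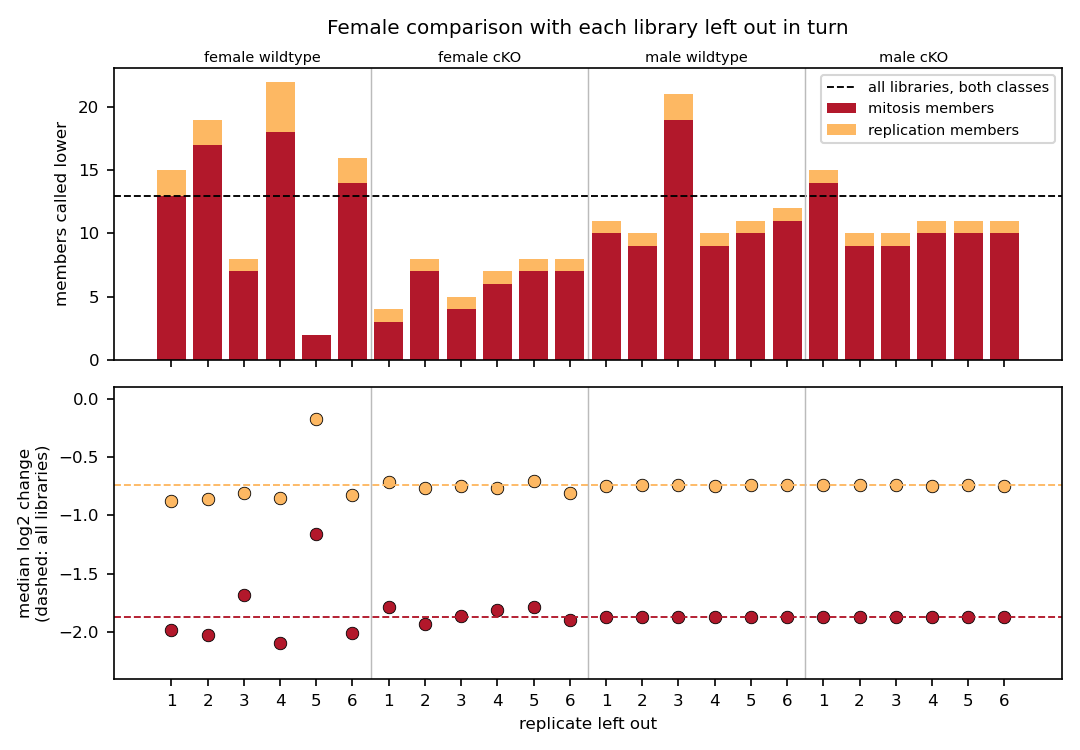
Number of members called lower in female cKO (upper panel, stacked by class) and median log2 change by class (lower panel) when each of the 24 libraries is left out in turn; dashed lines give the values with all libraries (13 members, -0.74 for replication and -1.87 for mitosis). The count is lowest, at 2, and both medians are closest to 0 without female wildtype 5.

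In score terms, the replication score was 3.53 ± 0.86 in female wildtype and 2.99 ± 0.16 in female cKO, a difference of -0.55 that became -0.21 without female wildtype 5. The mitosis score was 2.03 ± 1.16 and 1.02 ± 0.17 (SD, n = 6 each), a difference of -1.01 that became -0.65. Apart from female wildtype 3 and 5, the mitosis scores of female wildtype 1, 6 and 2 (1.60, 1.54 and 1.41) also lay above the highest female cKO score of 1.26. The sixth, female wildtype 4, had 0.73, below all female cKO libraries. Within replicates 1 to 3 the median change of mitosis members in females was -1.39 and of replication members -0.36, with no member called. Within replicates 4 to 6 they were -2.2 and -1.13, with *Racgap1* alone called. Of all genes, 1.63% were called lower within replicates 1 to 3 and 2.41% within replicates 4 to 6.

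In males no member passed, and the high libraries fell on both sides of the comparison. None of 42 members was called (edgeR's quasi-likelihood test, adjusted p = 0.9997 for each), none had an unadjusted p under 0.05, and DESeq2 called none. Of all genes 0.115% were lower and 0.0726% higher in male cKO. The median log2 change was 0.12 for replication members (13 of 14 above 0) and -0.13 for mitosis members (19 of 28 below 0). No member had every male cKO library below every male wildtype library, a pattern held by 0.345% of genes.

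Each male group had 1 high library. *Top2a* stood at 20.4 CPM in male wildtype 3 and 1.22 to 3.08 in the other male wildtype libraries, and at 14.5 CPM in male cKO 1 and 1.79 to 5.06 in the other male cKO libraries. *Rrm2* likewise reached 18.2 CPM in male cKO 1 and 17.7 in male wildtype 3, against 0.688 to 4.32 in the other 10. Without male wildtype 3 the median change of mitosis members became 0.68, and without male cKO 1 it became -0.59, again with no call. The mitosis members with the smallest p were *Kif23* (-0.92, SE 0.71), *Cenpe*, a kinetochore motor (-0.57, SE 0.58), *Ttk*, a checkpoint kinase (-0.65, SE 0.88), and *Nusap1*, a spindle protein (-0.38, SE 0.63). Among replication members they were *Ccne2* (0.48, SE 0.39), *Mcm7* (0.35, SE 0.35), *Pcna* (0.12, SE 0.19) and *Mcm2* (0.20, SE 0.36). The mitosis score was 1.23 ± 0.82 in male wildtype and 1.27 ± 0.65 in male cKO, and the replication score 3.08 ± 0.40 and 3.19 ± 0.51 (SD, n = 6 each), differences well within the spread.

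The female and male effects were not shown to differ. The difference of the genotype effect between the sexes was below 0 for all 42 members, with a median of -1.50 against -0.03 over all genes. None was called by edgeR's quasi-likelihood test, while 0.411% of all genes were called. By that test 21 members had an unadjusted p under 0.05, as did 1175 of all 16535 genes. Among the members the smallest p belonged to *Tk1* (-2.05, SE 0.71, adjusted p = 0.37). Without male wildtype 3 a single member passed, *Kif11*, the kinesin that pushes spindle poles apart (-4.05, adjusted p = 0.048). Female and male wildtype libraries differed in no member by the same test, although 18 members were higher in females at an unadjusted p under 0.05 and the median was 1.10. Of all 16535 genes 0.0363% were called there, and 520 had an unadjusted p under 0.05 in either direction. This comparison shares its wildtype libraries with the genotype comparisons, and female wildtype 5 and 3 enter all of them.

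The mean level of markers of monocyte-derived cells, which enter the cord in EAE, was highest in the same libraries, but not every marker followed. The mean of log2(CPM + 0.5) over 12 such markers was highest in female wildtype 5 (2.21), female wildtype 3 (1.68), male cKO 1 (1.60) and male wildtype 3 (1.40), the 4 libraries with the highest mitosis scores. It lay between 0.40 and 1.23 in the other 20, and between 0.40 and 0.85 in female cKO. *Arg1*, an arginase of such cells, stood at 10.6, 9.24, 16.2 and 4.98 CPM in these 4 libraries in the same order and at most 2.997 in the others. Other markers did not rise in all 4. *Vcan* had its lowest level of the 24 libraries in male cKO 1 (0.294 CPM). *Ccr2* stood at 0.757 CPM in male wildtype 3 against 1.21 in male wildtype 2, and *Plac8* was highest in male wildtype 1 (2.68 CPM). In female cKO 4 of 10 tested markers were called lower and 1 higher, while of all genes tested 4.41% were called lower and 3.32% higher. The lower ones were *Ly6c2*, *F13a1*, *Ms4a4c* and *Nos2*, and the higher one was *Fn1*. *Nos2* stood at 14.3 CPM in female wildtype 5 and at 0.110 to 0.843 in the other female wildtype libraries. Levels were low: *Ly6c2* reached 1.71 CPM at most and was at 0 in 5 of 6 female cKO libraries, and *Chil3* was at 0 in all 6.

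**Figure D5:**
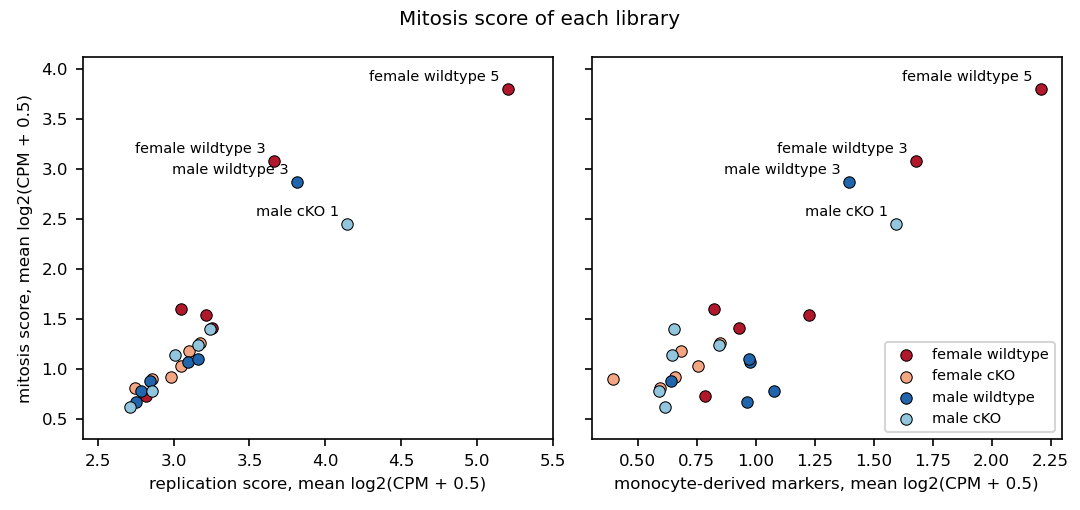
Mitosis score of each library against its replication score (left) and against the mean level of 12 monocyte-derived markers (right), all as mean log2(CPM + 0.5), coloured by group. Female wildtype 5 and 3, male wildtype 3 and male cKO 1 lie at the upper right of both panels, while the other 20 libraries have mitosis scores of 1.60 or less.

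The summed level of the 12 markers, nearly all of it *Fn1*, ranged from 190.2 to 600.5 CPM in female wildtype, 500.1 to 924.4 in female cKO, 185.7 to 377.9 in male wildtype and 324.8 to 1065 in male cKO, and so did not follow the mitosis score. T and NK cell markers, 12 genes, summed to at most 10.5 CPM, in female wildtype 5. With the mean marker level as a covariate no member was called in females, while 2.44% of all genes were called lower. The median change of members was then 0.25 for replication and 0.18 for mitosis. This covariate is itself highest in the libraries with high scores. The part of other cells in the result was not tested.

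Other genes of cell division were split in a similar way. Of 40 tested replication genes outside the members, 3 fell in female cKO (median -0.57), while 4.41% of all genes tested were called lower. The 3 were *Pola2*, a subunit of the polymerase that primes replication (-0.73, SE 0.20, adjusted p = 0.025), *Clspn*, a checkpoint mediator (-2.06), and *Rad51ap1*, a recombination factor (-2.13). Without female wildtype 5 these became -0.43, -1.26 and -1.09 and lost their calls, and over the 12 fits that left out a female library the calls were lost in 4, 7 and 7. Set against the same 4.41% of all genes, 11 of 52 tested mitosis genes fell (median -1.32). The smallest p among them belonged to 2 condensin subunits, which compact mitotic chromosomes, and to *Kif2c* and *Espl1*. *Ncaph* fell from 3.34 to 10.1 CPM in female wildtype to 1.51 to 2.94 in female cKO (-1.26, SE 0.27, adjusted p = 0.0031). *Ncapg2* fell from 2.74 to 5.76 CPM to 1.59 to 2.26 (-0.98, SE 0.23, adjusted p = 0.0069). For both, and for the microtubule depolymerase *Kif2c* (-2.02, SE 0.50, adjusted p = 0.010), every female cKO library lay below every female wildtype library. This pattern was held by 2.1% of all genes tested. *Ncapg2* was not raised in female wildtype 5 (3.21 CPM). The calls of both condensin genes were kept in all 12 fits that left out a female library, and each in 10 of 13 other alternatives. *Espl1*, the separase that cuts cohesin, fell by 0.72 (SE 0.19, adjusted p = 0.015). Without female wildtype 5 *Kif2c* became -1.21 and *Espl1* -0.52, and neither was called. In males none of these lists had a call.

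Among 16 tested regulators of cell cycle entry, *E2f2*, an E2F activator, was the only one called, while 4.41% of all genes were called lower. *E2f2* ranged from 18.2 to 65.8 CPM in female wildtype (median 26.97) and from 5.34 to 10.8 in female cKO (median 8.65), without overlap, a pattern held by 2.1% of all genes tested. It fell by 1.92 on the log2 scale (SE 0.24, adjusted p = 2.9e-06), a call kept in all 12 fits that left out a female library and in all 13 other alternatives. In males it stood at 21.8 to 35.0 CPM in wildtype and 12.4 to 22.2 in cKO, with a log2 change of -0.77 (SE 0.23, adjusted p = 0.30), and the difference between the sexes did not pass (-1.15, SE 0.32, adjusted p = 0.16). The highest *E2f2* level, 65.8 CPM, was in female wildtype 5, against 18.2 to 32.0 in the other female wildtype libraries. Unlike most mitosis members, *E2f2* did not stand apart in male wildtype 3 (33.3 CPM, against 21.8 to 35.0 in the others). Nor did it in male cKO 1 (20.8 CPM, against 12.4 to 22.2 in the others). The members *E2f1* and *Foxm1* and the regulators *Ccnd1* (-0.34), *Ccne1* (-1.42) and *Mybl2* (-1.92) did not pass.

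Of 26 tested inhibitors and brakes of the cell cycle, 1 rose and 1 fell in females, shares near those of all genes (3.32% higher and 4.41% lower). *Cdkn2a*, the gene of p16 and of Arf, ranged from 2.78 to 12.1 CPM in female wildtype (median 3.55) and from 8.59 to 16.5 in female cKO (median 14.0). It rose by 1.41 on the log2 scale (SE 0.31, adjusted p = 0.0034). The wildtype library that overlapped with cKO was number 5, the one with the highest proliferation scores. In males it changed by 0.91 (SE 0.31, adjusted p = 0.52), from 1.97 to 4.32 CPM to 3.53 to 9.45. *Cdkn2d*, the gene of p19, fell by 0.97 in females (SE 0.23, adjusted p = 0.0072). It stood at 71.6 CPM in female wildtype 5 and 16.5 to 30.1 in the other female wildtype libraries, and without that library the change was -0.59, still called. *Cdkn1a* (-0.17) and *Cdkn1b* (-0.06), for p21 and p27, did not pass.

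Of 13 tested genes that control microglial growth and survival, 3 fell in females, of which 2 are given here, and none was called higher. Of all genes tested 4.41% were called lower. The list as a whole did not fall: its median log2 change was 0.26, and 5 of the 13 estimates were below 0. *Il1r1*, the receptor through which IL-1 acts on repopulating microglia in mice, fell by 1.15 (SE 0.22, adjusted p = 9.0e-04), from 3.45 to 11.9 CPM to 3.08 to 5.13. *Csf2rb*, a shared cytokine receptor subunit, fell by 0.57 (SE 0.16, adjusted p = 0.021). Every female cKO library (150.3 to 193.0 CPM) lay below every female wildtype library (198.3 to 408.4 CPM), a pattern held by 2.1% of all genes tested. The *Csf2rb* call was lost in 3 of the 12 fits that left out a female library, and was kept in 7 of 13 other alternatives. *Csf1r*, the receptor on which microglia depend, did not pass (0.31, SE 0.13, adjusted p = 0.16).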

How the data were processed

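RNA of spinal cord microglia was sequenced in 24 libraries. The labels' protocols give a Direct-zol purification and, from enriched mRNA, stranded KAPA libraries. The submitters' processing notes name mm10, Trimmomatic, FastQC and bcl2fastq; neither source gives the aligner, the counter with its strand setting, or the annotation. The deposited file is a single table of raw whole-number counts, made by the authors, with a row for each Ensembl gene identifier. Of 39017 identifiers 37693 matched the GENCODE annotation of that build, and unmatched ones held 0.574% of counts. Of counts from 1 to 10, 71.8% were even, so counts may not be single molecules and counting error may be larger than they imply. Replicates differed by far more than sampling noise (chi-square per gene of 14.5 to 367), and none were merged.

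The main test was edgeR 4.0.16 (R 4.3.3), quasi-likelihood, TMM factors, filterByExpr, all 4 groups in 1 fit, with Benjamini-Hochberg adjustment over 16535 genes and calls at an adjusted p under 0.05. CPM used the same factors, and fold changes are log2, cKO over wildtype. Scores used an offset of 0.5 CPM. The fits were first tested on simulated data. Alternatives were DESeq2 1.42.0, RLE factors, other filters, the compared groups alone, voom quality weights and title number as a random effect (limma 3.58.1), removal of 4 libraries that stand apart, replicate sets, counts divided by 2, a marker covariate, and each library left out in turn (for scores, chosen after seeing the data). The members and lists were chosen with earlier results of these data known.

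Genes named were 14 members in every case, every called member, the 4 members of each class with the smallest p in each genotype comparison, and up to 4 called genes of each other list. Other members in the text (such as *Kif20a* and *Foxm1*), and *Ccnd1*, *Ccne1*, *Mybl2*, *Cdkn1a*, *Cdkn1b* and *Csf1r*, were chosen after their values were seen. A called gene of the microglial growth list is not reported here.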

Additional observations from a re-analysis of the deposited data

Results flagged for a closer look

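In each group of 6, a library was listed where its gap to the nearest other library, as a share of the group's range, passed Dixon's 95% critical value; 64 group values were checked, for 14 members and both scores, and chance alone lists about 1 in 20. Of 28 values listed, 27 were high and belonged to female wildtype 5 (8), male wildtype 3 (10) or male cKO 1 (9).

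In female wildtype 5 these were *Mcm2* (74.4 CPM), *Mcm5* (75.8), *Rrm2* (51.1), *Tyms* (11.6), *E2f1* (52.2), *Uhrf1* (62.7), *Plk1* (29.4 CPM) and the replication score (5.20). All of these genes but *Plk1* belong to replication. The rule measures the gap to the nearest library, and female wildtype 3 was also high for mitosis members, as for *Top2a* (41.9 CPM in number 5 and 21.03 in number 3). The listing therefore does not show an excess limited to replication: female wildtype 5 was the highest library for 24 of 29 mitosis members.

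In male wildtype 3 they were *Mki67* (3.09 CPM), *Top2a* (20.4), *Cdk1* (19.6), *Ccnb2* (5.20), *Birc5* (14.8), *Plk1* (8.04), *Rrm2* (17.7), *Tyms* (3.53), *Uhrf1* (14.6 CPM) and the mitosis score (2.86). In male cKO 1 they were *Top2a* (14.5 CPM), *Cdk1* (14.4), *Birc5* (10.02), *Plk1* (5.995), *Mcm2* (30.8), *Mcm5* (23.4), *Rrm2* (18.2), *Uhrf1* (19.3 CPM) and the replication score (4.14). The remaining value was a low one, *Uhrf1* in female cKO 5 (2.91 CPM).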

How the results depend on the processing

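In females 13 members were lower (1 replication, 12 mitosis). DESeq2 gave 19 (2 replication), RLE factors 13, no filter 13, a filter of 1 CPM in 6 libraries 12 and halved counts 13. Of all genes, 5.63%, 4.45%, 2.75%, 4.74% and 4.78% were lower in these fits, in that order, against 4.41% in the main test. The compared groups alone gave 8 (7 mitosis), voom quality weights 2 (both mitosis; 4.75% of all genes were lower), title number as a random effect 0 in both classes (2.26% of all genes), a term for the 2 sets of replicates 20 (2 replication), replicates 1 to 3 alone 0, replicates 4 to 6 alone 1 (mitosis; 0 replication), and both the removal of the 4 libraries and the marker covariate 0. Of all genes, 3.34% were lower with the compared groups alone and 6.41% with the term for the sets. The share was 1.63% in replicates 1 to 3 and 2.41% in replicates 4 to 6. It was 3.15% without the 4 libraries and 2.44% with the covariate. Left-out libraries gave 2 to 22 members, 0 to 4 replication and 2 to 19 mitosis, while 3.34% to 5.75% of all genes were lower. The median change of mitosis members in females was -0.78 with quality weights, -0.48 without the 4 libraries and 0.18 with the covariate, and that of replication members -0.18, -0.037 and 0.25. Over left-out libraries they ran from -2.09 to -1.16 and from -0.87 to -0.17, and in males from -0.59 to 0.68 and from -0.11 to 0.25. With the covariate 7 called genes changed sign in females: *Birc5* 0.15, *Aurka* 0.14, *Cdca3* 0.57, *Cdca8* 0.13, *Tpx2* 0.22, *Nuf2* 0.11 and *Rad51ap1* 0.15; the cause was not tested. Calls of the difference between the sexes ran from 0 to 1 over left-out libraries. Score differences ran from -1.27 to -0.65 (mitosis, females), -0.69 to -0.21 (replication, females), -0.19 to 0.37 (mitosis, males) and -0.08 to 0.26 (replication, males). No paired analysis was possible because replicate numbers are in accession order and pair no libraries. Levels under about 1 CPM rest on few counts, as for *Kif23*.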
